A study of Mus musculus with 11 samples.

Results

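The genes described here mark mucous neck cells of the gastric gland and spasmolytic metaplasia, and were followed in 2 mouse models of gastric cancer and in normal gastric epithelium. The 9 genes, Muc6, Tff2, Gkn3, Cftr, Aqp5, Wfdc2, Cd44, Sox9 and Clu, were chosen by name, with earlier results of these data known. Each was read from 1 probe set that carries its symbol alone, out of 19938 genes with such a probe set. Their levels are normalized log2 signals from Affymetrix arrays, 1 array for each of 11 samples, so that a difference of 1 is a 2-fold difference in signal.

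Mucous neck cells sit in the middle of the gland, secrete the gel-forming mucin Muc6 together with the trefoil peptide Tff2, and in mice give rise to the zymogen-secreting chief cells deeper in the gland. After loss of acid-secreting parietal cells or other injury, chief and neck cells can take on a proliferative mucous state called spasmolytic polypeptide-expressing metaplasia, after an old name of Tff2. That state keeps the neck products and adds proteins that a healthy gland holds little of, among them Wfdc2, a secreted protease inhibitor-like protein, and Cd44, the hyaluronan receptor. Clu, a secreted chaperone, is also counted among its markers. Many of the same genes are also used in the glands of the antrum, the part of the stomach next to the duodenum.

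The pChePS_GC group held 4 samples of diffuse-type gastric cancer tissue from mice that carried Pdx-1-Cre with 1 floxed and 1 wild-type allele of Cdh1 (Cdh1F/+) and were floxed at Trp53 (Trp53F/F) and Smad4 (Smad4F/F). The pCP_GC group held 3 samples of diffuse-type gastric cancer tissue from mice with Pdx-1-Cre and the genotype Cdh1F/F and Trp53F/F, with no floxed Smad4 named. The NGE group held 4 samples of normal gastric epithelium from mice labelled Pdx1-1-Cre-negative, and their alleles at Cdh1, Trp53 and Smad4 are not in the labels. All samples were labelled as untreated. The Pdx1 promoter that drives the Cre is active in antral epithelium, duodenum and pancreas, so recombination is not limited to a single cell type. Age, sex and the region of the stomach were not given. No label states that each sample is a mouse of its own, so the spread behind the p-values is that between these samples and may be technical.

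The floxed genes were read first. Smad4 averaged 10.49 ± 0.40 in pChePS_GC, 11.44 ± 0.05 in pCP_GC and 11.09 ± 0.05 in NGE, and Cdh1 9.6 ± 1.09 in pChePS_GC, 11.20 ± 0.76 in pCP_GC and 12.98 ± 0.05 in NGE (SD, n = 4, 3 and 4). By limma Smad4 fell by 0.60 in pChePS_GC (adjusted p = 0.0152) and stood 0.35 above NGE in pCP_GC (adjusted p = 0.114, not passed). The difference between the tumour groups was -0.95 (adjusted p = 0.0585, not passed). Cdh1 was called lower at -3.39 and -1.78 (adjusted p = 0.000315 and 0.0137) in pChePS_GC and pCP_GC. The position of either probe set relative to the loxP sites is not in the sources used here, and Trp53 was not analysed here. Array medians lay between 7.63 and 7.81, and pairs of arrays within a group correlated across genes at r = 0.962 to 0.994. Xist read 5.57 to 6.02 in the tumour arrays and 11.54 to 12.66 in NGE, and the Y-linked Eif2s3y read 8.08 to 11.09 in the tumour arrays and 4.94 to 5.19 in NGE, so in each comparison with NGE the tumour state and the sex-linked signal cannot be told apart. Epithelial signal was high in all groups, as 6 epithelial markers, Cdh1 included, averaged 12.16 to 12.57 in pChePS_GC, 12.36 to 12.86 in pCP_GC, and in NGE from 12.19 to 12.37. Single markers moved apart under that mean, as 3 rose and 2 fell in pChePS_GC, and 2 rose and 1 fell in pCP_GC. Cldn7 averaged 11.64 in pChePS_GC, 11.47 in pCP_GC and 8.07 in NGE, while Cdh1 fell. The like means therefore do not show a like epithelial content. In tissue samples, fewer cells of a type and less RNA per cell cannot be told apart. NGE was labelled as epithelium and the tumour samples as cancer tissue. The kind of material taken and the tumour state therefore cannot be told apart in either comparison with NGE.

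Most of the 9 genes rose in the tumours, and the neck products Muc6 and Tff2 did not. In pChePS_GC, Cftr, Cd44, Wfdc2, Aqp5, Gkn3 and Clu rose, Tff2 fell, and Muc6 and Sox9 did not pass the test, which was limma's moderated test with Benjamini-Hochberg adjustment over all 19938 genes at an adjusted p under 0.05. These 6 higher calls of 9 stand beside 18.7% of all genes called higher in that comparison, and the 1 lower call beside 23.4% called lower. In pCP_GC, 7 of the 9 rose (against 20.0% of all genes called higher) and 0 fell (against 31.8% called lower), with 2 that did not pass, Muc6 and Tff2. The groups did not overlap, with the tumours higher, for 6 genes in pChePS_GC (17.7% of all genes) and for 8 in pCP_GC (24.0% of all genes). With the tumours lower, they did not overlap for 1 gene in pChePS_GC (22.9% of all genes) and 0 in pCP_GC (35.6% of all genes). A called rise of at least 2-fold was seen for 5 genes in pChePS_GC (6.98% of all genes) and 6 in pCP_GC (8.13% of all genes). The median change of the 9 genes was 1.82 in pChePS_GC and 2.43 in pCP_GC, beside medians over all genes of -0.10 and -0.12. Both comparisons use the same NGE arrays. As the 9 genes were chosen with earlier results of these data known, the shares of all genes describe the setting and test nothing. With each array centred on its own median, the medians over all genes moved to -0.27 and -0.33, and the share of called genes that were higher moved to 22.8% in pChePS_GC and 21.7% in pCP_GC, against 44.5% and 38.6% as deposited.

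**Figure D1:**
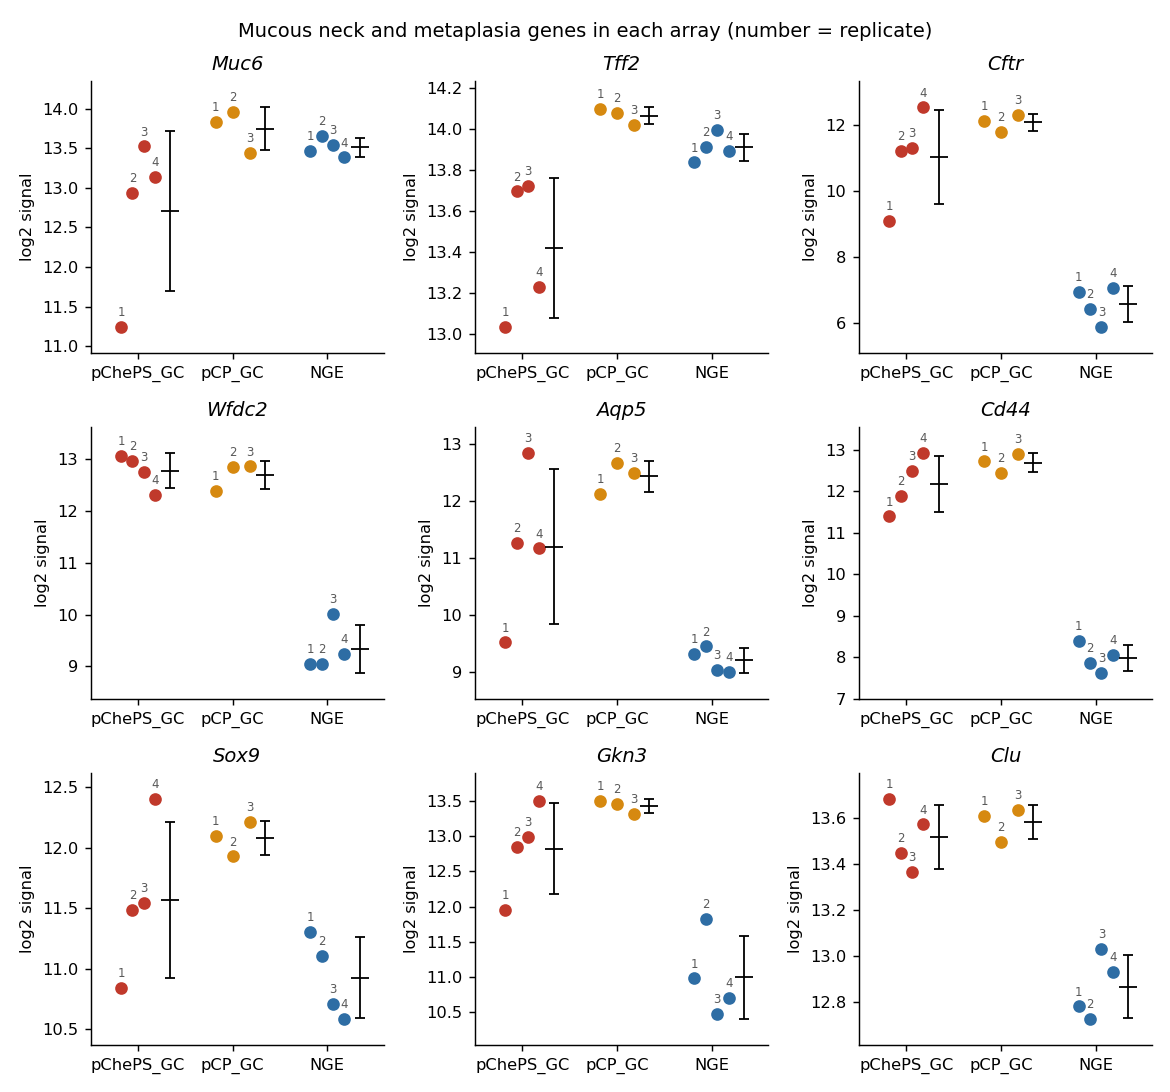
Log2 signal of the 9 genes (vertical axes, each with its own range) in every array of pChePS_GC, pCP_GC and NGE; points are arrays with their replicate number, and the bar beside each group is the mean ± SD (n = 4, 3 and 4). Cftr, Wfdc2 and Cd44 are far above NGE in all 7 tumour arrays, while Muc6 and Tff2 lie within about the same high levels in pCP_GC and NGE and reach their lowest levels, 11.24 and 13.04, in pChePS_GC replicate 1.

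Promoter sequences are shown for the 2 genes that rose most in pChePS_GC, Cftr and Cd44, and for Muc6, whose change did not pass. They are the 250 bases before the RefSeq transcript start, from build GRCm38.p6, with CpG dinucleotides in capitals.
The Cftr window is chr6:18170437-18170686 (plus strand), the Cd44 window chr2:102901666-102901915 (minus strand) and the Muc6 window chr7:141655394-141655643 (minus strand).
Cftr: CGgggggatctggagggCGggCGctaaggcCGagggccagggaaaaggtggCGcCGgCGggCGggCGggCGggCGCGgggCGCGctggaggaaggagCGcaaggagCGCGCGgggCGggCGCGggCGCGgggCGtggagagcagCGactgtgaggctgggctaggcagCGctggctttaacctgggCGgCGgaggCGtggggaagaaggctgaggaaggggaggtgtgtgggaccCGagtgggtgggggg
Cd44: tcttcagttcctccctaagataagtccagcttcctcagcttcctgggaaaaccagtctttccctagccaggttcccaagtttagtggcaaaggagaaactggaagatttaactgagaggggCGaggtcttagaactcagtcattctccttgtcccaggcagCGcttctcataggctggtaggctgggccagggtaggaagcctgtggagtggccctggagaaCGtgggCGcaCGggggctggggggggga
Muc6: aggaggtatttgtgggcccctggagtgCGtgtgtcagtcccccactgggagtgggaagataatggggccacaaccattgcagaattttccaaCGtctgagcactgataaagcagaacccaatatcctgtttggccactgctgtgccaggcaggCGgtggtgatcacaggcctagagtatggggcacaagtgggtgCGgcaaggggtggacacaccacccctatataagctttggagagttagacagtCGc
The Cftr window held 30 CpG dinucleotides, more than 94.1% of the 32851 promoter windows of that table, whereas the Cd44 and Muc6 windows held 5 each, near the median of 6. RefSeq windows were matched for 6 of the 9 genes, the others being Wfdc2 with 14 CpG dinucleotides, Aqp5 with 38 and Gkn3 with 5. Among these 6, windows rich and poor in CpG were thus found in genes that rose, and the CpG count of the gene that did not pass equalled that of Cd44 and Gkn3. Both strands of each window were searched for 4 motifs. The AP-1 motif TGANTCA was found in 0 of the 6 windows and 6.75% of all windows, the TCF/LEF motif CTTTGAT in 0 and 3.21%, the forkhead motif TGTTTAC in 0 and 3.17%, and the STAT motif TTCNNNGAA in 0 and 7.02%. The absence of a match says only that these letters are not in these windows.

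The first question was how the classical neck cell products stood in the tumours. Muc6, the gel-forming mucin of neck and antral gland cells, read 11.24, 12.94, 13.53 and 13.14 in the pChePS_GC arrays, 13.83, 13.97 and 13.44 in pCP_GC, and 13.47, 13.66, 13.54 and 13.39 in NGE. The groups overlapped in both comparisons with NGE, and pChePS_GC replicate 1 lay lowest by far. The change was -0.80 in pChePS_GC (SE 0.39, adjusted p = 0.118) and 0.23 in pCP_GC (SE 0.42, adjusted p = 0.659) and neither passed. Median-centred arrays gave Muc6 -0.98 in pChePS_GC (adjusted p = 0.0404) and leaving out replicate 3 gave -1.07 (adjusted p = 0.0465), both past the threshold. Leaving out replicate 1 gave -0.31 (adjusted p = 0.144), so that array carried much of the difference, and the adjusted p ran between 0.0404 and 0.194 under all settings tried.

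Tff2, the trefoil peptide that gave the metaplasia its name and is secreted with Muc6, read 13.04, 13.70, 13.72 and 13.23 in pChePS_GC, 14.10, 14.08 and 14.02 in pCP_GC, and 13.84, 13.91, 14.00 and 13.90 in NGE. All 4 pChePS_GC arrays lay below every NGE array, and all 3 pCP_GC arrays lay above every NGE array by a margin of 0.02. Tff2 fell by 0.49 in pChePS_GC (SE 0.14, adjusted p = 0.0206), a change smaller than 2-fold. Its change in pCP_GC was 0.16 (SE 0.16, adjusted p = 0.417). The fall in pChePS_GC did not pass with quantile-normalized arrays (-0.29, adjusted p = 0.196) or without NGE replicate 3 (-0.46, adjusted p = 0.056), and its adjusted p ran between 0.00247 and 0.196 under all settings tried. The brightest named gene of each array read 14.20 to 14.33, and where signal saturates near that level, differences of Tff2 and Muc6 are compressed, which was not tested.

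Gkn3, a secreted gastrokine of mouse mucous neck cells, read 11.95, 12.85, 12.99 and 13.50 in pChePS_GC, 13.50, 13.46 and 13.31 in pCP_GC, and 10.98, 11.82, 10.48 and 10.71 in NGE. All tumour arrays were above all NGE arrays, by only 0.13 in pChePS_GC, where replicate 1 came close to NGE replicate 2. Gkn3 rose by 1.82 in pChePS_GC (SE 0.33, 3.54-fold, adjusted p = 0.00171) and by 2.43 in pCP_GC (SE 0.36, 5.38-fold, adjusted p = 0.000472). Of the 3 neck cell products, Gkn3 was the one called higher in both tumour groups.

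The next genes encode transport proteins of mucous and ductal epithelium. Cftr, the chloride and bicarbonate channel mutated in cystic fibrosis, read 9.08, 11.20, 11.30 and 12.52 in pChePS_GC, 12.12, 11.79 and 12.29 in pCP_GC, and 6.94, 6.42, 5.87 and 7.05 in NGE. No tumour array came within 2.03 of NGE. Cftr rose by 4.46 in pChePS_GC (SE 0.58, 21.9-fold, adjusted p = 0.000203) and by 5.50 in pCP_GC (SE 0.62, 45.2-fold, adjusted p = 9.65e-05). The mean of NGE, 6.57, lay below 7.24, the level that 95% of 1194 odorant and pheromone receptor genes stayed under in NGE, and where that level is background the folds are lower bounds. Without pChePS_GC replicate 1, the lowest tumour array, the rise in pChePS_GC was 5.11.

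Aqp5, a water channel of antral gland, salivary and Brunner's gland cells, read 9.51, 11.26, 12.84 and 11.16 in pChePS_GC, 12.13, 12.67 and 12.49 in pCP_GC, and 9.31, 9.44, 9.03 and 9.0 in NGE. Replicate 1 of pChePS_GC was 0.07 above the highest NGE array, whereas replicate 3 was above every pCP_GC array. Aqp5 rose by 2.00 in pChePS_GC (SE 0.52, 4.00-fold, adjusted p = 0.0121) and by 3.24 in pCP_GC (SE 0.56, 9.42-fold, adjusted p = 0.0012). The rise in pChePS_GC was 2.56 without replicate 1 and 1.45 without replicate 3, and passed in both.

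Wfdc2, also called HE4, is a secreted protein with whey acidic protein domains. It read 13.07, 12.97, 12.75 and 12.30 in pChePS_GC, 12.39, 12.85 and 12.86 in pCP_GC, and 9.05, 9.05, 10.02 and 9.24 in NGE. All 7 tumour arrays lay at least 2.29 above the highest NGE array. Wfdc2 rose by 3.44 in pChePS_GC (SE 0.24, 10.8-fold, adjusted p = 3.13e-06) and by 3.36 in pCP_GC (SE 0.26, 10.3-fold, adjusted p = 8e-06). It was the gene of the 9 whose mean was higher in pChePS_GC than in pCP_GC.

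Cd44, the hyaluronan receptor, is carried by metaplastic and stem-like gastric epithelium and also by leukocytes and fibroblasts. It read 11.39, 11.88, 12.48 and 12.91 in pChePS_GC, 12.71, 12.44 and 12.89 in pCP_GC, and 8.39, 7.87, 7.63 and 8.06 in NGE. The lowest tumour array was 3.00 above the highest NGE array. Cd44 rose by 4.18 in pChePS_GC (SE 0.29, 18.1-fold, adjusted p = 3.3e-06) and by 4.70 in pCP_GC (SE 0.31, 26.0-fold, adjusted p = 4.18e-06). Markers of other cells that carry Cd44 moved with it. In both comparisons with NGE, 6 of 6 macrophage markers and 6 of 6 fibroblast markers rose. The mean level of the macrophage markers was 10.87 to 11.38 in pChePS_GC, 10.36 to 11.38 in pCP_GC and 7.34 to 7.62 in NGE, and that of the fibroblast markers 10.92 to 11.90, 10.82 to 12.05 and 7.69 to 7.90 in the same order. Of the 5 T cell markers measured 0 rose and 1 fell in each comparison, and their mean level was 7.02 to 7.57 in pChePS_GC, 7.14 to 7.49 in pCP_GC, and in NGE 7.28 to 7.43. The part of these cells in the Cd44 signal was not tested. The rises of the macrophage and fibroblast markers cannot be told apart from the difference in material, epithelium against cancer tissue.

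Sox9, a transcription factor of gland progenitors and mucous neck cells, read 10.84, 11.48, 11.54 and 12.40 in pChePS_GC, 12.10, 11.93 and 12.21 in pCP_GC, and 11.30, 11.11, 10.71 and 10.59 in NGE. The pCP_GC arrays were all above NGE, while replicate 1 of pChePS_GC lay within the NGE range. Sox9 rose by 1.15 in pCP_GC (SE 0.30, 2.22-fold, adjusted p = 0.00906). Its change in pChePS_GC was 0.64 (SE 0.28, adjusted p = 0.0843), which missed the threshold. Leaving out replicate 1 gave 0.88 (adjusted p = 0.0171) and weighting the arrays gave 0.80 (adjusted p = 0.0211), both past the threshold, whereas leaving out replicate 4, the highest array, gave 0.36 (adjusted p = 0.183). The adjusted p ran between 0.0171 and 0.196 under all settings tried.

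Clu, the secreted chaperone clusterin, read 13.68, 13.45, 13.37 and 13.57 in pChePS_GC, 13.61, 13.50 and 13.64 in pCP_GC, and 12.78, 12.73, 13.03 and 12.93 in NGE. It was bright in every group, and the tumour arrays were all above NGE by a margin of 0.34 or more. Clu rose by 0.65 in pChePS_GC (SE 0.10, 1.57-fold, adjusted p = 0.000509) and by 0.72 in pCP_GC (SE 0.11, 1.64-fold, adjusted p = 0.000479). Of the called rises of the 9 genes, those of Clu were the ones under 2-fold.

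**Figure D2:**
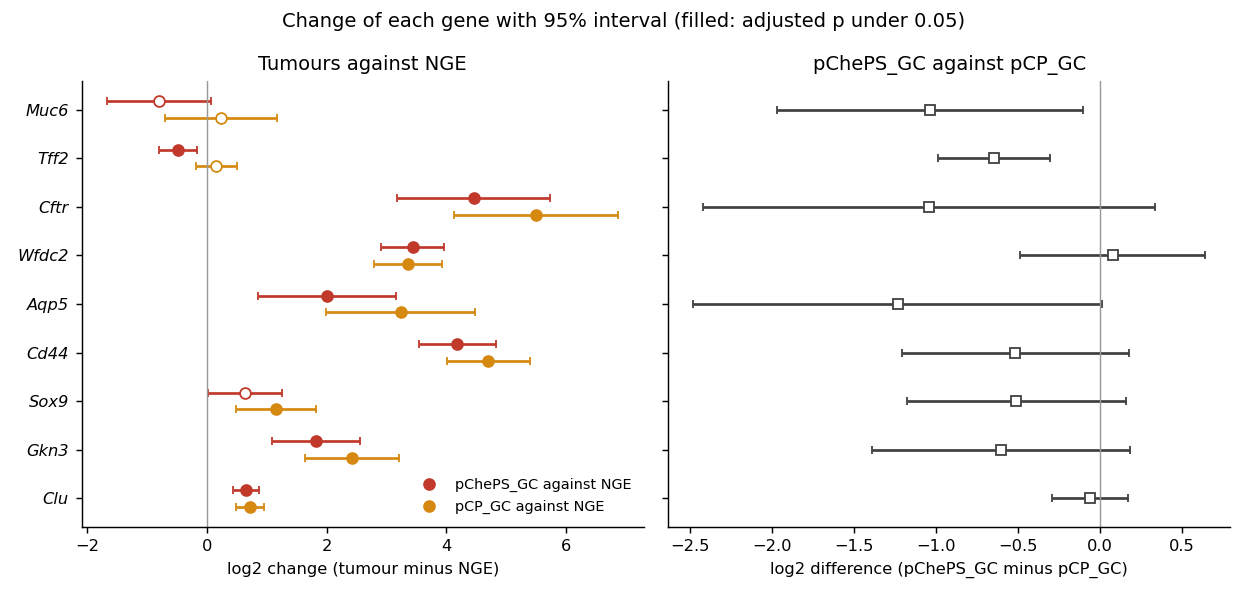
Left, log2 change of each gene in pChePS_GC and pCP_GC against NGE with its 95% interval from limma, filled where the adjusted p was under 0.05; right, the log2 difference of pChePS_GC minus pCP_GC with its 95% interval, where no gene passed. Changes against NGE run from -0.80 for Muc6 in pChePS_GC to 5.50 for Cftr in pCP_GC, and 8 of the 9 differences between tumour groups are below 0.

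The comparison of pChePS_GC with pCP_GC asked whether the 9 genes differed between tumours with floxed Smad4 and 1 floxed Cdh1 allele and tumours with both Cdh1 alleles floxed. By limma, 0 of the 9 genes passed, beside 0.366% of all genes, and 2 of the 9 had an unadjusted p under 0.05, beside 16.5% of all genes. Those were Tff2 and Muc6. Tff2 was lower in pChePS_GC, at 13.42 ± 0.34 (SD, n = 4), than in pCP_GC, at 14.07 ± 0.04 (SD, n = 3), and the arrays did not overlap, as for 4.40% of all genes in that direction. The difference of Tff2 was -0.65 (95% interval -0.99 to -0.30, limma adjusted p = 0.111), and the exact two-sided permutation test over the 35 arrangements gave p = 0.0571, where 0.0286 is the smallest the design allows. Muc6 averaged 12.71 ± 1.01 (SD, 4 arrays) in pChePS_GC, against 13.75 ± 0.27 (SD, 3 arrays) in pCP_GC, with a difference of -1.04 (95% interval -1.97 to -0.10, adjusted p = 0.263). Without pChePS_GC replicate 1 the difference of Muc6 was -0.55 (adjusted p = 0.182), and without that array and pCP_GC replicate 2 it was -0.44 (adjusted p = 0.277).

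For the other genes the 95% interval of the difference spanned 0. It ran from -2.42 to 0.33 for Cftr, from -2.48 to 0.01 for Aqp5, from -1.21 to 0.18 for Cd44, from -1.17 to 0.15 for Sox9 and from -1.39 to 0.18 for Gkn3. Differences of 2-fold or more in favour of pCP_GC are inside each of these intervals. The interval ran from -0.49 to 0.64 for Wfdc2 and from -0.30 to 0.17 for Clu, so that a 2-fold difference is outside for both. The mean was lower in pChePS_GC for 8 of the 9 genes, where 42.2% of all genes had a lower mean, and the median difference was -0.61 beside 0.04 over all genes. Without pChePS_GC replicate 1 the median difference was -0.32, with -0.39 for Cftr, -0.67 for Aqp5, -0.26 for Cd44, -0.27 for Sox9 and -0.32 for Gkn3. Sox9 stood at -0.79 without pChePS_GC replicate 4.

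The pChePS_GC arrays varied more among themselves than the other groups. The SD was larger in pChePS_GC than in pCP_GC for 9 of the 9 genes, beside 57.4% of all genes, and larger than in NGE for 8 of the 9, beside 65.0%. The range within pChePS_GC was 3.45 for Cftr and 3.33 for Aqp5, against 0.50 and 0.54 within pCP_GC. Replicate 1 of pChePS_GC was the lowest array of its group for 7 of the 9 genes (Muc6, Tff2, Cftr, Aqp5, Cd44, Sox9 and Gkn3) and the highest for the other 2, Wfdc2 and Clu. The share of all genes lowest in this array was not counted, so the count is not read as particular to these 9. That array also had the lowest mean level in its group of the surface mucous markers (9.06, against 10.14 to 11.96 in the other 3 arrays), of the chief cell markers (7.51, against 8.11 to 8.48) and of the smooth muscle markers (9.23, against 10.56 to 12.33), and the lowest of the proliferation markers (10.18, against 10.58 to 10.97). It had the highest mean level of the pancreatic acinar markers among all 11 arrays (9.12, against 8.09 to 8.47 in the other pChePS_GC arrays, 7.67 to 8.34 in pCP_GC and 8.78 to 8.85 in NGE). Its epithelial markers averaged 12.39, inside the range of the other arrays. Replicate 1 was also lowest in its group for fibroblast (10.92, against 11.11 to 11.90) and endothelial markers (9.73, against 9.80 to 10.83). The same held for macrophage (10.87, against 10.95 to 11.38), T cell (7.02, against 7.33 to 7.57) and parietal cell markers (6.95, against 7.21 to 7.33). Its markers of pancreatic and bile ducts were highest in the group (11.97, against 11.52 to 11.77). The part of these cells in the pattern was not tested. A further fit left out pChePS_GC replicate 1 and pCP_GC replicate 2, which kept more parietal cell signal than the other pCP_GC arrays. There 7 of the 9 genes rose and 1 fell in pChePS_GC, 7 rose in pCP_GC, and 0 differed between the tumour groups. Among all genes, that fit called 3892 higher and 4091 lower in pChePS_GC, and 3612 higher and 5125 lower in pCP_GC. Between the tumour groups it called 233 of all genes.

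**Figure D3:**
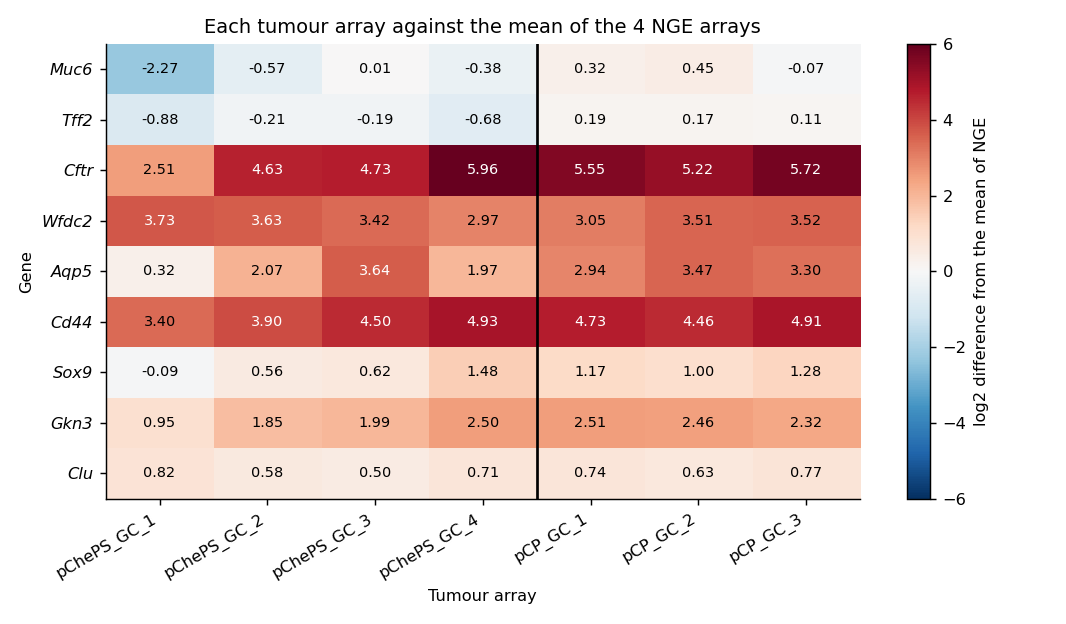
Log2 difference of each gene (rows) in each tumour array (columns, pChePS_GC left of the line and pCP_GC right of it) from the mean of the 4 NGE arrays, printed in each cell and coloured from blue (lower) to red (higher). Replicate 1 of pChePS_GC is at -2.27 for Muc6 and 0.32 for Aqp5 and yet at 3.73 for Wfdc2, and the pCP_GC columns differ little from each other.

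The levels of the other gastric cell types give the setting. Of 6 parietal cell markers 6 fell in each comparison, with a mean level of 6.95 to 7.33 in pChePS_GC, 6.74 to 8.60 in pCP_GC, and in NGE 12.18 to 12.39. Of 6 chief cell markers 5 fell in pChePS_GC and 4 in pCP_GC, with a mean level of 7.51 to 8.48, 7.85 to 9.74 and 10.78 to 11.35 in the same order of groups. Of 6 surface mucous markers 5 fell in pChePS_GC and 2 in pCP_GC, with a mean level of 9.06 to 11.96, 11.52 to 12.47 and 13.70 to 13.77. All 5 proliferation markers measured rose in each comparison, with a mean level of 10.18 to 10.97 in pChePS_GC, 10.65 to 11.24 in pCP_GC, and in NGE 8.97 to 9.29. Of 6 markers of pancreatic acinar cells, a tissue that Pdx-1-Cre also reaches, 0 rose and 2 fell in each comparison, with pChePS_GC replicate 1 above every NGE array as given above. Those that fell were Clps and Ptf1a. Ctrb1, Cpa1 and Cela1 had higher means in pChePS_GC than in NGE and did not pass. Their SDs were 1.83, 1.21 and 0.62 in pChePS_GC, against 0.12, 0.06 and 0.25 in NGE. Of 6 smooth muscle markers 6 rose in each comparison, with a mean level of 9.23 to 12.33 in pChePS_GC, 10.82 to 11.97 in pCP_GC and, in NGE, 7.75 to 7.8. Within pChePS_GC their level was lowest in replicate 1 and highest in replicate 3, as were those of Aqp5, the fibroblast markers and the endothelial markers. The part of these cell types in the changes of the 9 genes was not tested. Of the 4 measured markers of pancreatic and bile ducts, which share Cftr and Sox9 with these cells, 1 rose in each comparison, Krt7.

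Among the trefoil factors, gastrokines and mucins, 13 genes that include Tff2, Gkn3 and Muc6, 2 rose and 4 fell in pChePS_GC, and 2 rose and 0 fell in pCP_GC. Muc5ac, the gel-forming mucin of surface mucous cells, fell by 4.84 in pChePS_GC (adjusted p = 0.000545), beside -1.85 (adjusted p = 0.0716, not passed) in pCP_GC. Gkn1, the surface cell gastrokine, fell by 2.76 in pChePS_GC (adjusted p = 0.0133), beside -0.69 (adjusted p = 0.481, not passed) in pCP_GC. The genes that rose were Gkn3 and Muc4, a membrane mucin, whose rise was 1.27 and 1.17 (adjusted p = 0.00352 and 0.00621) in pChePS_GC and pCP_GC. The family median was -0.24 in pChePS_GC and -0.18 in pCP_GC, beside -0.10 and -0.12 over all genes.

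**Figure D4:**
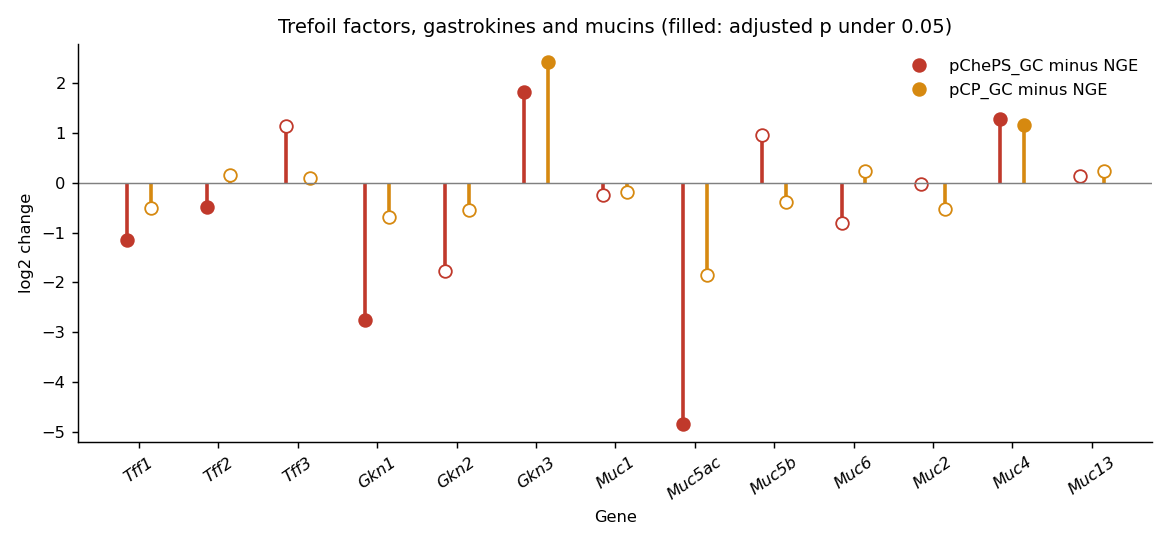
Log2 change against NGE of 13 trefoil factor, gastrokine and mucin genes (horizontal axis) in pChePS_GC and pCP_GC; filled points have an adjusted p under 0.05. Gkn3 and Muc4 are the filled points above 0, and Muc5ac, at -4.84 in pChePS_GC, is the lowest.

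The enzymes and partners of neck mucus were followed through 12 further genes of mucous neck and antral glands, of which 2 rose and 4 fell in pChePS_GC and 3 rose and 2 fell in pCP_GC. A4gnt adds the terminal N-acetylglucosamine that decorates Muc6 in gland mucus. It fell by 2.01 in pChePS_GC (adjusted p = 0.00797), beside 0.28 (adjusted p = 0.669, not passed) in pCP_GC, and the difference between the tumour groups was -2.29 (adjusted p = 0.101, not passed). Pgc, the progastricsin zymogen of neck, chief and antral cells, fell by 2.54 in pChePS_GC (adjusted p = 0.0167), beside -1.81 (adjusted p = 0.0684, not passed) in pCP_GC. Pigr, the receptor that carries polymeric antibodies across epithelium, rose by 2.40 and 2.43 (adjusted p = 0.000752 and 0.00106) in pChePS_GC and pCP_GC. Lyz1, a lysozyme, rose by 2.97 and 2.20 (adjusted p = 0.000707 and 0.00493) in pChePS_GC and pCP_GC. It is close in sequence to the macrophage lysozyme Lyz2, and whether the probe set tells them apart is not known here.

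Of 17 measured genes reported with metaplasia beside the 9, 7 rose and 2 fell in pChePS_GC, and 6 rose and 2 fell in pCP_GC. Their median change was 0.88 and 0.74, beside -0.10 and -0.12 over all genes. Glipr1 rose by 3.53 and 3.91 (adjusted p = 2.35e-07 and 2.73e-07), and Krt7, a ductal keratin, by 2.59 and 2.32 (adjusted p = 0.000742 and 0.00193) in pChePS_GC and pCP_GC. Olfm4, a secreted glycoprotein of intestinal stem cells in humans, rose by 2.52 in pChePS_GC (adjusted p = 0.0484), beside 2.38 (adjusted p = 0.0666, not passed) in pCP_GC. Slc7a11 encodes the cystine transporter that a variant form of Cd44 stabilises. Its change in pChePS_GC was 0.88 (adjusted p = 0.139, not passed), and it rose by 1.43 in pCP_GC (adjusted p = 0.0331).

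Of 10 measured genes around Cd44 and hyaluronan, 4 rose and 2 fell in pChePS_GC, and 5 rose and 2 fell in pCP_GC. Msn, the moesin that links Cd44 to actin, rose by 3.55 and 3.26 (adjusted p = 7.83e-06 and 3.04e-05) in pChePS_GC and pCP_GC. Has2, which makes hyaluronan, rose by 2.44 and 1.95 (adjusted p = 0.00286 and 0.00998), and Tgfbi, a matrix protein, by 3.09 and 3.47 (adjusted p = 1.01e-05 and 1.1e-05). The macrophage and fibroblast markers given beside Cd44 moved with these genes too, and their part in the result was not tested.

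Of 10 partners of Cftr in ion transport 1 rose and 4 fell in pChePS_GC, and 1 rose and 2 fell in pCP_GC. The gene that rose was Kcne3, a potassium channel subunit that drives chloride secretion in the intestine, at 4.76 and 5.30 (adjusted p = 3.13e-06 and 4.12e-06) in pChePS_GC and pCP_GC. Slc26a6, an anion exchanger, was called lower at -1.78 and -1.55 (adjusted p = 2.87e-05 and 0.000141), and Slc26a9, a chloride transporter of gastric epithelium, at -1.39 and -1.23 (adjusted p = 5.21e-05 and 0.000224). Car2, a carbonic anhydrase, fell by 0.83 in pChePS_GC (adjusted p = 0.0144), beside -0.33 (adjusted p = 0.275, not passed) in pCP_GC.

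Of 11 aquaporins, Aqp5 included, 2 rose in each comparison, the other being Aqp1, a water channel of endothelium, at 3.71 and 3.43 (adjusted p = 0.000233 and 0.00065) in pChePS_GC and pCP_GC. Endothelial markers moved with Aqp1, since 6 of 6 rose in each comparison, with a mean level of 9.73 to 10.83 in pChePS_GC, 9.6 to 10.06 in pCP_GC, and in NGE 7.21 to 7.35, and their part in its change was not tested. Aqp3, a water and glycerol channel, was called lower at -2.91 and -2.54 (adjusted p = 0.000587 and 0.00183), and Aqp4, the water channel of parietal cells, at -1.36 and -1.70 (adjusted p = 0.00154 and 0.000609). In all, 5 aquaporins fell in pChePS_GC and 8 in pCP_GC, and for the dim members the falls stand beside a median change of -0.15 and -0.22 in the receptor genes.

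Of 15 SOX genes, Sox9 included, 2 rose and 3 fell in pChePS_GC, and 4 rose and 4 fell in pCP_GC. Sox4, a factor of progenitor cells, rose by 2.43 and 1.78 (adjusted p = 2.37e-06 and 3.49e-05) in pChePS_GC and pCP_GC. Sox7, an endothelial factor, stood at 0.31 (adjusted p = 0.205, not passed) in pChePS_GC and rose by 0.88 in pCP_GC (adjusted p = 0.0056), and Sox13 was called lower at -0.52 and -0.68 (adjusted p = 0.00353 and 0.00104). Of 9 genes of the whey acidic protein family, Wfdc2 included, 4 rose and 2 fell in pChePS_GC, and 3 rose and 3 fell in pCP_GC. Wfdc18 rose by 2.97 and 3.52 (adjusted p = 0.00994 and 0.00471) and Wfdc1 by 1.26 and 1.49 (adjusted p = 0.0374 and 0.0204). Slpi, a leukocyte protease inhibitor, rose by 1.80 in pChePS_GC (adjusted p = 0.0112), beside 0.61 (adjusted p = 0.323, not passed) in pCP_GC.

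The signals known to bring on metaplasia were also read. Of 10 measured genes of the alarmin and type 2 cytokine circuit, 1 rose and 2 fell in pChePS_GC and 1 rose and 3 fell in pCP_GC. The gene that rose was Il4ra, the receptor chain shared by interleukins 4 and 13, at 1.94 and 1.29 (adjusted p = 1.1e-05 and 0.000298) in pChePS_GC and pCP_GC. Il33, an alarmin of damaged epithelium, named after its values were seen, stood at 0.05 (adjusted p = 0.944, not passed) in pChePS_GC and 0.51 (adjusted p = 0.414, not passed) in pCP_GC. The cytokine Il13 was called lower at -0.34 and -0.56 (adjusted p = 0.0251 and 0.00259), with means of 7.33 in pChePS_GC, 7.11 in pCP_GC and 7.67 in NGE, near the upper level of the receptor genes given for Cftr. Il25 was called lower at -0.29 and -0.68 (adjusted p = 0.047 and 0.00105), with means of 7.34 in pChePS_GC, 6.95 in pCP_GC and 7.63 in NGE. Those means were also near the upper level of the receptor genes, 6.99, 6.86 and 7.24 in that order. Il5 stood at -0.06 (adjusted p = 0.617, not passed) in pChePS_GC and at -0.24 in pCP_GC (adjusted p = 0.0486). The means of Il5, 5.61 in pChePS_GC, 5.43 in pCP_GC and 5.67 in NGE, were near the medians of the receptor genes, 5.26, 5.17 and 5.41. Its change in pCP_GC was close to their median change of -0.22, so its call is not read as a fall of its own. Of 14 genes of the injury and regeneration response, 7 rose and 2 fell in pChePS_GC, and 5 rose and 1 fell in pCP_GC. Atf3 was called lower at -0.81 and -0.90 (adjusted p = 0.0433 and 0.0334) in pChePS_GC and pCP_GC. Jun fell by 1.05 in pChePS_GC (adjusted p = 0.00398), beside -0.35 (adjusted p = 0.234, not passed) in pCP_GC. Ccn1, a secreted Yap target, rose by 2.9 and 3.22 (adjusted p = 0.000167 and 0.000164) in pChePS_GC and pCP_GC. Ereg, a ligand of the EGF receptor, rose by 2.26 and 2.70 (adjusted p = 0.00726 and 0.00329), and Plaur, the urokinase receptor, by 2.13 and 1.71 (adjusted p = 0.000485 and 0.00238).

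The genes whose levels ran most like each of the 9 were found by the root mean square distance, over the 7 tumour arrays, between the genes' differences from the mean of NGE. The nearest to Cftr was Kcne3, at a distance of 0.57, and the second was Dcn, a fibroblast proteoglycan, at 0.79. The nearest to Muc6 were Fah at 0.37 and Agr2, a secretory folding protein of mucous cells, at 0.37, where Agr2 lay at -1.55 in pChePS_GC replicate 1. The nearest to Tff2 were Smad4, the gene floxed in pChePS_GC, at 0.19, and Raver2 at 0.20. Smad4 differed from the mean of NGE by -0.91, -0.48, -0.07 and -0.92 in the pChePS_GC arrays and by 0.34, 0.40 and 0.32 in the pCP_GC arrays, where Tff2 differed by -0.88, -0.21, -0.19 and -0.68 and by 0.19, 0.17 and 0.11. The nearest to Cd44 were Emcn, an endothelial sialomucin, at 0.45 and Postn, a stromal matrix protein, at 0.47. The nearest to Wfdc2 were Cpe at 0.32 and Onecut2 at 0.32, to Aqp5 Rgs2 at 0.50 and Foxf1 at 0.52, and to Gkn3 Rad18 at 0.23 and Fhl5 at 0.23. The nearest to Sox9 were Gne at 0.18 and Ndc1 at 0.20, and to Clu Dnajc8 at 0.07 and Gfpt1 at 0.08. Small distances are easier to reach for genes that moved little, as the median distance of all genes was 0.56 to Tff2 and 5.13 to Cftr. The distance also counts any difference between the tumour groups that 2 genes share.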

How the data were processed

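Per the labels, total RNA came from an AllPrep kit and was biotin-labelled for Affymetrix arrays. The authors deposited 1 normalized log2 signal per probe set and array; the log2 unit was inferred from the range, 2.88 to 14.56. Per the submitters' processing notes the software was Affymetrix Expression Console; version, algorithm and build: not given in the sources used here. The background correction and normalization by that step set the level of dim genes.

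Of 35556 probe sets, 21789 had 1 gene symbol in the platform annotation, 1621 had several and 12146 had none; 21698 of the first matched a RefSeq gene by number. Each gene took its probe set with the highest mean over 11 arrays, which gave 19938 genes. Each of the 9 genes had 1 probe set. Group means of all 11 arrays were fitted with limma 3.58.1 in R 4.3.3 (lmFit, eBayes), with two-sided p-values adjusted by Benjamini-Hochberg over all genes and a threshold of 0.05. No dim gene was left out. On simulated arrays with 200 of 19938 genes changed 2-fold, 80.0%, 76.5% and 73.5% were recovered (pChePS_GC against NGE, pCP_GC against NGE, pChePS_GC against pCP_GC). In the same order, 1.84%, 7.27% and 3.29% of the calls were false. The simulation gave all groups the same spread per gene and changed far fewer genes than were called against NGE. Its shares need not hold for these data. The number of arrays limits the precision.

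The 9 genes and the lists were chosen with earlier results of these data known. Named besides the 9 are the 4 genes per list with the largest called change and the 2 nearest genes per member. Exceptions are Il33, Atf3, Jun, Cldn7, the floxed and sex-linked genes, the pancreatic acinar markers, and the genes of the closing observations. Settings also tried were a trended or robust prior, a fit of only the groups compared, median centring, quantile normalization, filters on dim genes, averaged probe sets, array weights, a replicate block, other thresholds, and leaving out single arrays.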

Additional observations from a re-analysis of the deposited data

Results flagged for a closer look

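Tff2 lay on opposite sides of NGE in the tumour groups, which is why it is listed here: all 4 pChePS_GC arrays lay below the mean of NGE and all 3 pCP_GC arrays above it. The difference between pChePS_GC and pCP_GC was -0.65 on the log2 scale, with a limma adjusted p of 0.111, between 0.0689 and 0.312 under all settings tried, so the difference did not pass the test. Among 18 checks for an array far from the rest of its group of 4, over the 9 genes in pChePS_GC and NGE, 0 passed the critical value; chance alone gives about 1 in 20.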

How the results depend on the processing

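Of 594 repeats of the single-gene results, each gene in each comparison under 22 alternatives, 584 kept both direction and side of the threshold, 2 lost a call, 5 gained one and 3 reversed. The losses and gains were those of Tff2, Muc6 and Sox9 in pChePS_GC against NGE given above. The reversals were of changes that did not pass: Tff2 in pCP_GC against NGE with median-centred arrays (-0.058), and Wfdc2 between the tumour groups without pChePS_GC replicate 1 (-0.022) and without pCP_GC replicate 1 (-0.079), where leaving out each array in turn gave -0.079 to 0.23. The count of the 9 genes called stayed within 1.5 times of the reported one under each alternative. The number of all genes called in pChePS_GC against NGE was 4881 without the dimmest 50% of genes, 4411 with the adjusted p below 0.01, and 2057 when 2-fold was also required, against 8386 as reported. In pCP_GC against NGE the same settings gave 4611, 6682 and 2185, against 10337. Between the tumour groups 73 genes were called, against 0 with only the 2 groups fitted, 31 without the dimmest 50% of genes, 188 with array weights, 12 at an adjusted p under 0.01, 42 at 2-fold or more, and 233 without pChePS_GC replicate 1 and pCP_GC replicate 2 together, a setting chosen after seeing the data; leaving out each array in turn gave 26 to 154. With the replicate number as a block, 0 genes were called between the tumour groups, 8553 in pChePS_GC against NGE and 9610 in pCP_GC against NGE, with the counts among the 9 genes at 0, 7 and 7. The samples share only a number: same-numbered arrays correlated in their deviations at -0.15 to 0.16, and not every array correlated best with its own number. The deposited values carry no measure of signal over background, and Cftr in NGE is the 1 of the 9 at the level of the receptor genes.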

Other observations

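Antral identity was read from 4 markers, and the genes named here were chosen after their values were seen. Pdx1, the factor of antral epithelium whose promoter drives the Cre, averaged 9.70 in pChePS_GC, 10.10 in pCP_GC and 8.11 in NGE, and rose by 1.59 and 1.99 (adjusted p = 0.00317 and 0.00118) in limma. Nkx6-3, a factor of antral endocrine cells, averaged 10.83, 10.74 and 9.22 in the same order, and rose by 1.61 and 1.53 (adjusted p = 0.00386 and 0.00575). Gast, the hormone of antral G cells, stood at 0.33 (adjusted p = 0.619, not passed) in pChePS_GC and -0.22 (adjusted p = 0.756, not passed) in pCP_GC. Sst, the hormone of D cells, was called lower at -3.38 and -3.03 (adjusted p = 0.000144 and 0.000505). The region of the stomach sampled is not in the labels, and a difference in region between the groups cannot be told apart from the tumour state.

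Of 6 intestinal markers, 1 rose and 1 fell in pChePS_GC and 0 rose and 2 fell in pCP_GC. Fabp2, a fatty acid binding protein of enterocytes, was called lower at -4.00 and -2.18 (adjusted p = 2.53e-06 and 0.000245) in pChePS_GC and pCP_GC. Cdx2, the intestinal master factor, rose by 1.03 in pChePS_GC (adjusted p = 0.0473), beside 0.47 (adjusted p = 0.352, not passed) in pCP_GC. Of 6 squamous markers, 1 rose and 2 fell in pChePS_GC and 0 rose and 2 fell in pCP_GC.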
